A study of Homo sapiens with 54 samples.

Results

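CCL3, CCL4, CCL3L1, CCL4L2 and CCL20 are 5 chemokine genes of the 58735 genes in the bulk RNA table and of the 36601 genes in the single-cell files. They were chosen by name from earlier results on the same data, selected on their TPM in 3D and 2D culture at day 12, so that comparison is given as a description with no test. Because CCL3L1 is a near-identical copy of CCL3, and CCL4L2 of CCL4, each pair was also summed. All 5 genes passed the filter of a mean of at least 1 TPM (a transcript level scaled for gene length and to a total of 1000000 per library), and all 5 were found in both kinds of file.

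The study differentiated macrophages from the human embryonic stem cell line H1 in a porous 3D scaffold and compared them with cells made in flat 2D culture. Of its 54 samples, 32 are bulk RNA libraries and 3 are single-cell libraries of 3D days 7, 9 and 12, while 19 chromatin libraries were not analysed here. The bulk groups were 2D day 12 and 3D day 12 with 4 libraries each, 3D days 16, 19 and 23 with 3 each, the same 3 days with FBS in the label (the usual abbreviation of fetal bovine serum) with 3 each, and 3D SP6A, 3D SP14 and 3D E. coli with 2 each. Every group is of the H1 line, carries the cell type label macrophage and has no genetic change in the labels. SP6A and SP14 stand where other samples give a day, and their meaning is not given in the labels. The E. coli libraries carry no day, dose, duration or form of the bacteria in the labels. The labels do not say that replicates came from separate cultures, so p-values measure only the spread between these libraries, which may be technical.

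CCL3 (MIP-1 alpha) and CCL4 (MIP-1 beta) are secreted chemokines of macrophages and other leukocytes that attract other immune cells, and CCR1 is a receptor of CCL3. CCL20 (MIP-3 alpha) is the chemokine ligand of CCR6, found on memory T cells, B cells and immature dendritic cells. All are early response genes: microbial products sensed through Toll-like receptors switch them on within hours through NF-kB and AP-1, and their messages are short lived.

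CCL3 (ENSG00000277632) lies on chromosome 17 at 36088256 to 36090143 and CCL4 (ENSG00000275302) at 36103827 to 36105614 in RefSeq on GRCh38.p14. The gene called CCL3L1 in the files (ENSG00000276085) is named CCL3L3 in that reference and lies at 36194869 to 36196758, and CCL4L2 (ENSG00000276070) lies at 36211063 to 36212873, so the copies form a second CCL3 and CCL4 pair on the same chromosome. CCL20 (ENSG00000115009) lies alone on chromosome 2 at 227813842 to 227817556. Promoter entries were matched for CCL3, CCL3L3 and CCL20. The 150 bases before each start are printed from RefSeq (GRCh38.p14), 5′ to 3′ on the strand of the gene, to show how little the copies differ and what CCL20 shares with them. Capitals mark TATAAA, and GGGAAA on either strand (TTTCCC is its reverse complement). The windows are chr17:36090144-36090293 on the minus strand, chr17:36196759-36196908 on the minus strand and chr2:227813692-227813841 on the plus strand.
CCL3: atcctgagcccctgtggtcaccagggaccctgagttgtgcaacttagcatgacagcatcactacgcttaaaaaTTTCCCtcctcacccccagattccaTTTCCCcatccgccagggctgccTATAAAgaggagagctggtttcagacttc
CCL3L3: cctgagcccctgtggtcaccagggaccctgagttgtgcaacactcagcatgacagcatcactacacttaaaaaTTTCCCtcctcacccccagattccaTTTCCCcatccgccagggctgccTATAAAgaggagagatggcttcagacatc
CCL20: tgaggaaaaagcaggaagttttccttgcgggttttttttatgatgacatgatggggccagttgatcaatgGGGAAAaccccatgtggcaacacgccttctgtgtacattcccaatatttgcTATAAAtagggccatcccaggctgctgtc

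All 3 windows hold TATAAA from 29 to 24 bases before the start, a word found on either strand in 6.72% of 34943 RefSeq windows of the same length. The CCL3 and CCL3L3 windows hold TTTCCC at 77 to 72 and at 52 to 47 bases before the start, and the CCL20 window holds GGGAAA at 80 to 75 bases. GGGAAA on either strand was in 14.2% of all windows. The AP-1 word TGANTCA, in 4.18% of all windows, and the NF-kB consensus, in 4.62%, had 0 matches in these 3 windows, which says only that those letters are not there. In the last 100 bases before the start, CCL3 and CCL3L3 were identical at 96 positions.

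The bulk table gives TPM, so read depth is unknown. Libraries of a group correlated at 0.891 to 0.968 (Pearson r of log2 values across genes), apart from the E. coli libraries at 0.657. The E. coli libraries stood apart in other ways: 7954 and 8103 genes reached 1 TPM, against 11862 to 13257 in all other libraries, and mitochondrial genes took 17.2 and 25.2% of TPM, against 4.24 to 10.9%. A few genes with clone names, such as FP671120.3, took 0.418% of TPM on average in 2D day 12, 7.69% in 3D day 12, 16.4 to 18.6% at days 16 to 23 without FBS, 21.3, 28.4 and 17.6% at those days with FBS, and 4.46 to 10.7% in the 3 remaining groups. Their share moved with the comparisons of culture, day and FBS, and its part in the results was not tested. All 13 macrophage markers, CD68, CD14, CSF1R, CD163 and C1QA among them, averaged at least 1 TPM in every group. Their summed level was 10155 to 10997 TPM in 2D day 12, 13011 to 15234 in 3D day 12 and 10312 to 12137 in E. coli, and lay between 13192 and 25393 in all other groups.

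The 5 genes covered a range from 0 to 48652 TPM over the 32 libraries. CCL3, CCL4, CCL3L1 and CCL4L2 were all lowest in 2D day 12 and highest in E. coli, followed in each case by SP14 and then SP6A. Together the 5 genes made up 0.0310% of TPM in 2D day 12 (mean of 4 libraries), 0.663% in 3D day 12, 5.26% in SP6A, 9.08% in SP14 and 14.1% in E. coli. CCL3 ranked 819th to 995th among all genes in the 2D libraries, 55th to 79th in 3D day 12, and 2nd and 4th in the E. coli libraries.

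For CCL3 the means ran from 36528 ± 6779 TPM in E. coli (SD, n = 2) through 24604 ± 804 in SP14 and 15077 ± 1038 in SP6A to 2640 ± 138 in 3D day 23 (SD, n = 3). Below these came 3D day 16 (2285), 3D day 12 (2136), day 23 with FBS (1937) and day 19 with FBS (1661), and from day 23 down to this last group each range overlapped the next. Day 19 without FBS (1232) and day 16 with FBS (1135) overlapped each other, and 2D day 12 was at 146 ± 14.5 TPM (SD, n = 4), below every 3D library. The order for CCL4 put day 12 (1765 ± 161 TPM, SD, n = 4) above day 23 (1324) and day 16 (1119), with no overlap between these 3. The 4 remaining 3D groups for CCL4, day 19 and the 3 with FBS, lay between 546 and 660 TPM on average and overlapped.

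CCL20 had an order of its own. Its means were 1371 ± 273 TPM in E. coli (SD, n = 2), 870 ± 133 in SP14, 422 ± 3.96 in SP6A, 69.8 ± 20.9 in 3D day 12 (SD, n = 4), 30.8 ± 4.79 in day 23 (SD, n = 3), 8.73 in day 16, 4.43 in 2D day 12 and 2.22 in day 19. The 2D range overlapped those of days 16 and 19. With FBS, CCL20 was at 0, 0 and 2.09 TPM at day 16 and was listed at 0 in all 6 libraries of days 19 and 23, so that its lowest groups were the FBS groups and not 2D culture.

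**Figure D1:**
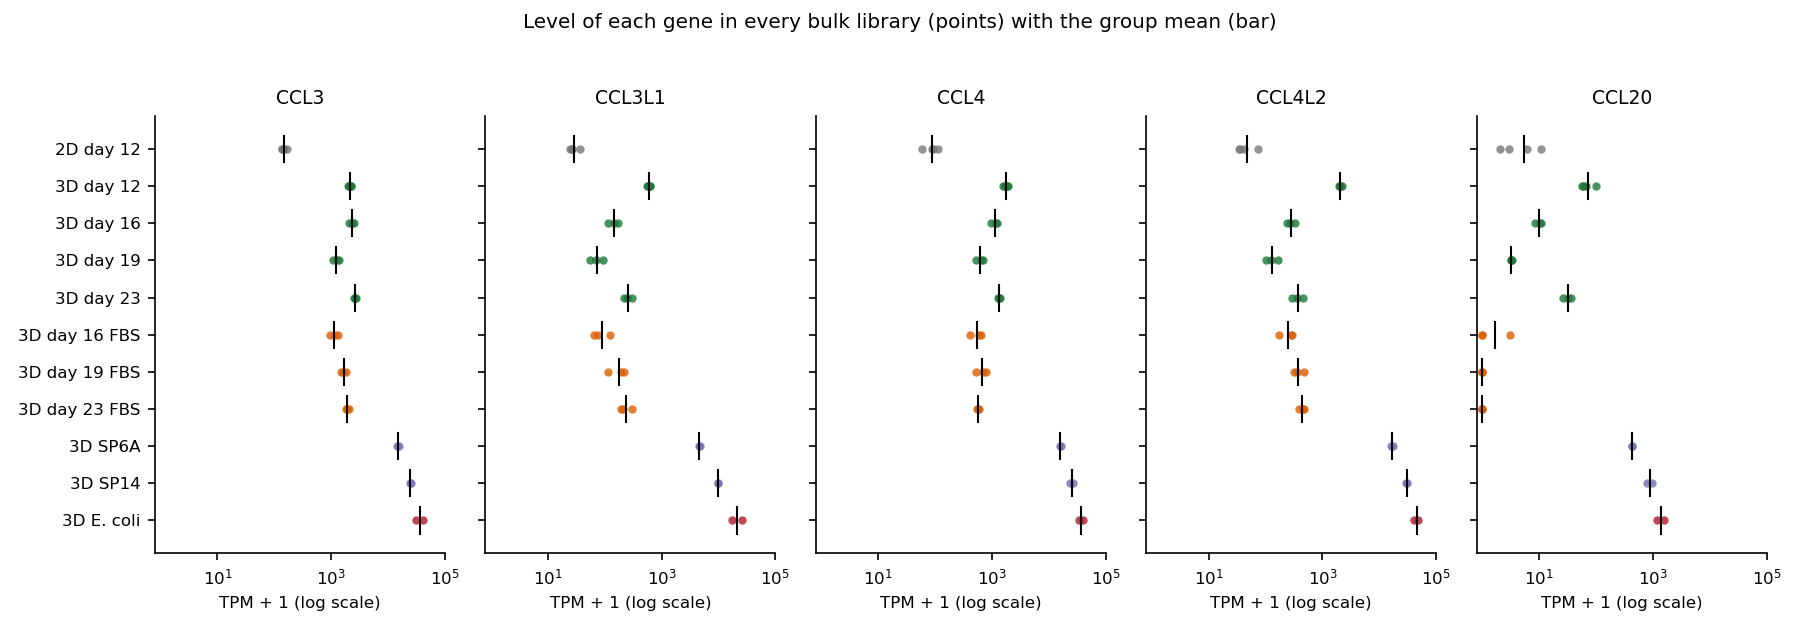
TPM + 1 on a log axis for CCL3, CCL3L1, CCL4, CCL4L2 and CCL20 in each of the 32 bulk libraries (points) with the group mean (bar). In the CCL3 and CCL4 panels the 2D libraries lie left of every 3D library, while CCL20 is lowest in the groups with FBS.

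At day 12 the values that chose CCL3 and CCL4 were as follows. CCL3 was at 136, 146, 167 and 136 TPM in the 2D libraries and at 2281, 2246, 1975 and 2041 TPM in the 3D libraries. CCL4 was at 57.8, 85.8, 113 and 90.1 TPM in 2D and at 1868, 1930, 1586 and 1677 TPM in 3D. The copies differed at least as much: CCL3L1 averaged 27.7 against 600 TPM and CCL4L2 45.3 against 2061 TPM. CCL20 was at 5.06, 1.06, 9.66 and 1.95 TPM in 2D and at 54.8, 100, 58.7 and 65.2 TPM in 3D.

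All 5 genes were thus higher in every 3D library than in any 2D library, by 14.6-fold for CCL3, 20.4-fold for CCL4, 21.7-fold for CCL3L1, 45.5-fold for CCL4L2 and 15.7-fold for CCL20. Over all 13131 genes tested, 13.0% were called higher and 24.7% lower in 3D. In bulk libraries, fewer cells of a type and less RNA per cell cannot be told apart. Markers of other cells also differed: the summed level of 5 monocyte markers was 7929 to 9683 TPM in 2D and 4525 to 6454 in 3D, that of granulocyte progenitor markers 1409 to 2776 and 28.2 to 152, and that of erythroid markers 3427 to 4405 and 27.7 to 1724. Their part in the difference was not tested.

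Over the days of 3D culture without FBS, the 5 genes parted between days 12 and 16 and then moved together. From day 12 to day 16 the copies and CCL20 fell steeply, CCL4 fell less, and CCL3 was not called. From day 19 to day 23 all 5 rose. Comparisons with day 12, those of SP6A, SP14 and E. coli included, use the same day-12 libraries whose levels chose the genes, and they share these controls.

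CCL4L2 went from 2060, 2202, 1923 and 2060 TPM at day 12 to 239, 265 and 327 at day 16 (log2 difference -2.90, SE 0.23, adjusted p = 1.41e-08 with limma and Benjamini-Hochberg adjustment over 13384 genes). CCL3L1 went from 629, 626, 563 and 581 to 113, 145 and 168 TPM (log2 difference -2.09, SE 0.28, adjusted p = 1.33e-05). CCL20 went from 54.8 to 100 TPM at day 12 to 9.21, 9.62 and 7.36 at day 16 (log2 difference -2.83, SE 0.30, adjusted p = 8.62e-07). In these 3 genes every day-16 library lay below every day-12 library.

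CCL3, by contrast, was at 2056, 2285 and 2515 TPM at day 16, overlapping day 12 (log2 difference 0.10, SE 0.18, adjusted p = 0.788). CCL4 fell by 0.66 on the log2 scale (SE 0.20, adjusted p = 0.0253), to 964, 1156 and 1236 TPM, without overlap. The call for CCL4 was lost without day 12 replicate 1 (adjusted p = 0.0619), day 12 replicate 2 (0.0675), day 16 replicate 1 (0.131) or day 16 replicate 2 (0.0571). As sums, CCL3 with CCL3L1 was not called (log2 difference -0.18, adjusted p = 0.586), whereas CCL4 with CCL4L2 fell by 1.46 (adjusted p = 1.14e-05).

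Of the 5 genes, 4 were thus called lower and 0 higher at day 16, where 6.25% of all genes were called lower and 10.3% higher. Their median log2 difference was -2.09 and that of all genes 0.18. The summed macrophage markers were higher at day 16 (21440 to 24111 TPM) than at day 12, and the summed monocyte markers lower (1154 to 1240 TPM). The 11 lymphoid or NK markers summed to 193 to 226 TPM at day 12, with 4 of them at 0, CD3E and CD3G included, and to 4.91 to 17.1 at day 16, with 8 at 0. The part of these markers in the result was not tested.

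From day 16 to day 19 the differences were smaller and less stable. CCL3 went to 1084, 1249 and 1362 TPM (log2 difference -0.89, adjusted p = 0.0295), CCL4L2 fell by 1.10 (adjusted p = 0.0376) and CCL20 fell by 1.59 (adjusted p = 0.0195), to 2.13, 2.15 and 2.39 TPM. CCL3L1 (log2 difference -0.98, adjusted p = 0.180) and CCL4 (-0.86, adjusted p = 0.0644, or 0.0263 in a fit without the E. coli libraries) did not pass, although in all 5 genes the day-19 libraries lay below those of day 16. Thus 3 of 5 were called lower, against 0.336% of all genes lower and 0.344% higher. Leaving out any of the 6 libraries ended the call of CCL3 (adjusted p 0.0572 to 0.133), and leaving out 5 of the 6 ended those of CCL4L2 (0.0788 to 0.195; all but day 19 replicate 1) and CCL20 (0.0623 to 0.0891; all but day 16 replicate 3).

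All 5 rose from day 19 to day 23, where 4.42% of all genes were called higher and 7.97% lower. CCL3 rose to 2620, 2514 and 2787 TPM (2.14-fold, log2 difference 1.10, SE 0.19, adjusted p = 0.000501) and CCL4 to 1336, 1252 and 1386 TPM (2.15-fold, log2 difference 1.11, SE 0.21, adjusted p = 0.00136). CCL20 rose most, to 25.7, 35.2 and 31.6 TPM (13.9-fold, log2 difference 3.29, SE 0.32, adjusted p = 9.98e-07). CCL3L1 and CCL4L2 rose 3.54-fold and 2.78-fold (adjusted p = 0.000282 and 0.000387). The summed macrophage markers were lower at day 23 (13192 to 13587 TPM) than at day 19 (17688 to 19215), and the summed monocyte markers higher (4567 to 5021 against 1797 to 1876). Of the 5 monocyte markers, 3 averaged at least 1 TPM at each of these days. PLAC8 was at 0 at both days and VCAN at day 19. The lymphoid or NK markers summed to 14.9 to 26.96 TPM at day 19 and 154 to 180 at day 23, with 7 of 11 at 0 at each day, CD3E, CD3G, TRAC, GNLY and KLRD1 among them. The part of these markers in the rise was not tested.

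FBS changed the 5 genes in different directions, depending on the gene and the day. CCL20 was lower with FBS at all 3 days. CCL3 and CCL4 were lower with FBS at day 16, and CCL4 also at day 23, while the copies CCL3L1 and CCL4L2 were higher with FBS at day 19. Neither summed pair passed at day 19 in the main fit, though each passed under some alternatives. With an F test on the difference of the FBS effect between the 3 days, all 5 passed (adjusted p from 0.000159 for CCL20 to 0.00913 for CCL4), as did 12.9% of all genes.

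For CCL20 the libraries without FBS were at 9.21, 9.62 and 7.36 TPM at day 16, 2.13, 2.15 and 2.39 at day 19 and 25.7, 35.2 and 31.6 at day 23, against the zeros given above and a single value of 2.09 TPM with FBS. The adjusted p was 4.73e-06 at day 16, 0.000567 at day 19 and 1.13e-09 at day 23. The log2 differences of -2.73, -1.69 and -4.98 depend on the pseudocount of 1 at all 3 days, because FBS libraries were listed at 0. With a pseudocount of 0.1 they were -4.97, -4.54 and -8.26.

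With FBS at day 16, CCL3 was at 950, 1306 and 1151 TPM, below every library without FBS (log2 difference -1.02, SE 0.19, adjusted p = 0.000714). CCL4 was at 406, 647 and 583 TPM (log2 difference -1.05, SE 0.21, adjusted p = 0.00144), also without overlap. CCL3L1 (log2 difference -0.74, adjusted p = 0.0892) and CCL4L2 (-0.18, adjusted p = 0.676) overlapped between the groups. Leaving out day 16 FBS replicate 2 made CCL3L1 pass (adjusted p = 0.0304). In all, 3 of 5 genes were called lower and 0 higher, where 10.1% of all genes were called lower and 7.96% higher.

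At day 19 the copies rose with FBS as single genes, but neither summed pair passed in the main fit. The log2 difference was 0.49 for CCL3 with CCL3L1 (adjusted p = 0.0712) and 0.48 for CCL4 with CCL4L2 (adjusted p = 0.0880). Both sums were higher in every FBS library than in any library without. Each sum stayed short of the threshold in 9 of 11 alternatives and passed in the rest. The lowest adjusted p was 0.0177 for the CCL3 pair and 0.0350 for the CCL4 pair. CCL4L2 was at 349, 464 and 316 TPM against 165, 102 and 124 without (log2 difference 1.53, SE 0.25, adjusted p = 0.000106), and CCL3L1 at 196, 114 and 215 against 69.4, 94.3 and 54.0 (log2 difference 1.24, SE 0.29, adjusted p = 0.00373). CCL4 did not differ beyond its spread (518 to 773 against 525 to 680 TPM, adjusted p = 0.806). CCL3 was higher in every FBS library but did not pass (log2 difference 0.43, adjusted p = 0.103), although it passed in a fit without the E. coli libraries (adjusted p = 0.0423). The count was 2 of 5 higher and 1 lower, against 12.8% and 12.2% of all genes.

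At day 23 CCL4 was again lower with FBS, at 567, 598 and 554 TPM against 1336, 1252 and 1386 (log2 difference -1.21, SE 0.21, adjusted p = 0.000471). CCL3 stood at 1841, 1933 and 2038 TPM, below each library without FBS, but did not pass (log2 difference -0.45, adjusted p = 0.132), and it passed under median-ratio scaling (adjusted p = 0.0340). CCL3L1 and CCL4L2 overlapped (adjusted p = 0.835 and 0.512). Here 2 of 5 genes were called lower and 0 higher, against 4.86% and 8.87% of all genes. Between the FBS groups and those without, the summed macrophage markers overlapped at days 16 and 19 but were higher with FBS at day 23 (20960 to 22969 TPM). The summed monocyte markers were lower with FBS at all 3 days (979 to 1146, 899 to 1099 and 1968 to 2282 TPM). Their part was not tested.

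**Figure D2:**
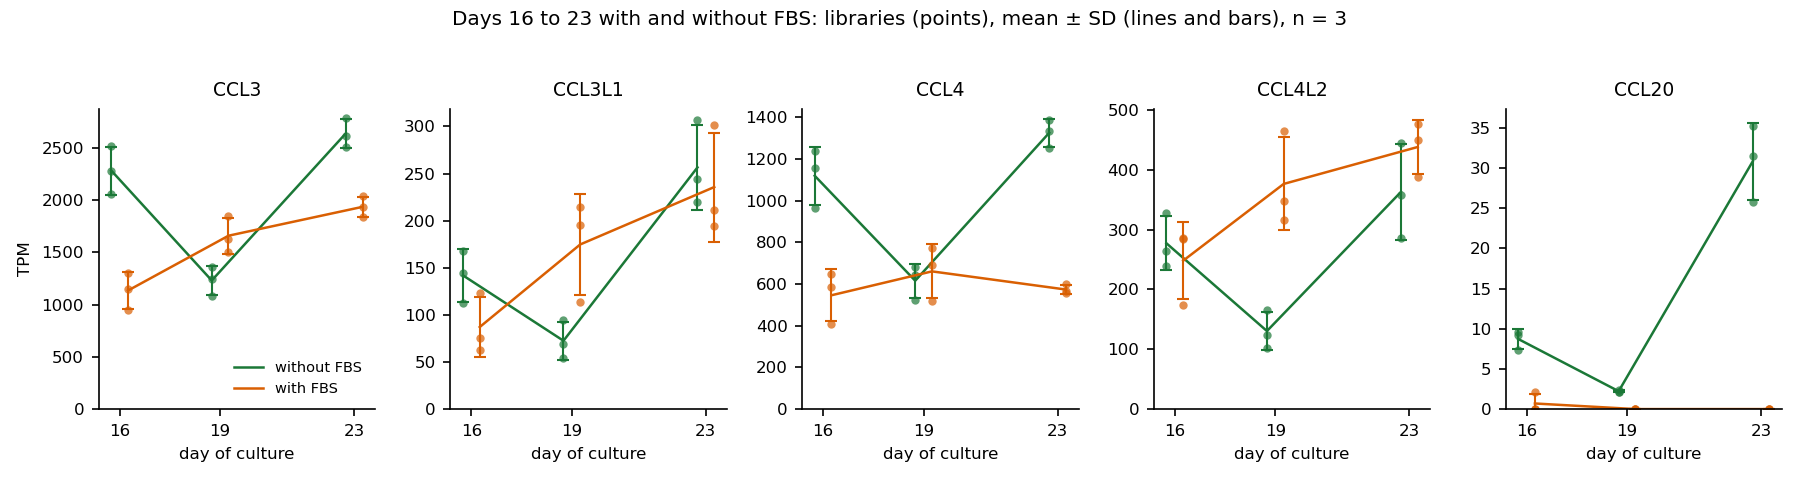
TPM of each gene at days 16, 19 and 23 without FBS (green) and with FBS (orange), with each library as a point and the mean ± SD of 3 libraries as lines and bars. CCL20 stays at or near 0 with FBS, and CCL4L2 and CCL3L1 pass the test for being higher with FBS at day 19 but not at days 16 and 23. The summed pairs, not drawn, do not pass at day 19 in the main fit.

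In SP6A and SP14 all 5 genes rose far above 3D day 12. CCL3 was at 15811 and 14343 TPM in SP6A (7.06-fold over day 12, log2 difference 2.82, SE 0.20, adjusted p = 1.11e-09) and at 24036 and 25173 TPM in SP14 (11.5-fold, log2 difference 3.53, SE 0.20, adjusted p = 3.00e-11). CCL4 was at 16260 and 15495 TPM in SP6A (9.00-fold, log2 difference 3.17, adjusted p = 1.05e-09) and at 23825 and 26339 TPM in SP14 (14.2-fold, log2 difference 3.83, adjusted p = 5.01e-11). CCL20 was at 419 and 425 TPM in SP6A (6.05-fold, adjusted p = 4.57e-06) and at 776 and 964 TPM in SP14 (12.5-fold, adjusted p = 3.96e-08).

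CCL3L1 rose 7.73-fold in SP6A and 16.4-fold in SP14, and CCL4L2 rose 8.07-fold and 14.8-fold. Thus all 5 were called higher, where 17.1% of all genes were called higher and 10.8% lower in SP6A, and 18.4% and 13.0% in SP14. Because the labels give these groups no day, they were also set against day 23 without FBS, a choice made after the data were seen. All 5 passed there too, with log2 differences of 2.51 for CCL3, 3.58 for CCL4, 4.18 for CCL3L1, 5.54 for CCL4L2 and 3.74 for CCL20 in SP6A, and of 3.22, 4.24, 5.27, 6.41 and 4.78 in SP14. The summed macrophage markers were 24267 to 25393 TPM in SP6A and 22306 to 22543 in SP14, above the 13011 to 15234 of day 12. Monocyte markers were lower, at 1358 to 1443 and 1144 to 1213 TPM against 4525 to 6454. Endothelial markers summed to 370 to 380 in SP6A and 334 to 356 in SP14 against 71.2 to 131 at day 12. Of these 8 markers, 4 averaged at least 1 TPM in SP6A, 3 in SP14 and 4 at day 12. CLDN5, one of the 8, was at 0 in SP6A and SP14 but not at day 12, so the sums rest on part of the list. Megakaryocyte markers summed to 187 to 190 and 356 to 386 against 77.1 to 101. The part of these markers was not tested.

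Between SP14 and SP6A, each of the 5 genes was higher in both SP14 libraries than in both SP6A libraries, by 1.58-fold for CCL4 to 2.12-fold for CCL3L1. None passed limma's test after adjustment (adjusted p 0.813 to 1), although all 5 had an unadjusted p under 0.05 (0.00621 to 0.0198). Only 0.0224% of all genes were called higher and 0.00747% lower, and on simulated data this comparison called 9% of the genes given a log2 change of 1. With no filter on low values, CCL3 passed (adjusted p = 0.00999), and 544 genes were called against 4 with the filter. The summed pairs did not pass in the main fit (adjusted p = 0.687 for the CCL3 pair and 0.721 for the CCL4 pair). Each stayed short of the threshold in 8 of 9 alternatives and passed in the other, with adjusted p = 0.00612 and 0.0204.

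The E. coli libraries held the highest levels of all 5. CCL3 was at 31734 and 41321 TPM, CCL4 at 33696 and 39933, CCL4L2 at 41566 and 48652, CCL3L1 at 17200 and 25683, and CCL20 at 1565 and 1178 TPM. Relative to the average of the 4 groups of 3D culture without FBS (days 12, 16, 19 and 23), CCL3 rose 17.6-fold (log2 difference 4.18, SE 0.18, adjusted p = 4.43e-14) and CCL4 30.5-fold (5.03, SE 0.20, adjusted p = 1.43e-14). CCL20 rose 49.2-fold (6.40, SE 0.30, adjusted p = 2.12e-13), CCL4L2 63.7-fold (6.80, adjusted p = 1.43e-15) and CCL3L1 80.1-fold (6.73, adjusted p = 2.46e-14).

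All 5 were thus called higher, where 13.7% of all genes were called higher and 42.9% lower, and the median of all genes was -0.84 against 6.40 for the 5. Set against day 12 alone, the log2 differences were 4.09 for CCL3, 4.38 for CCL4, 5.13 for CCL3L1, 4.45 for CCL4L2 and 4.30 for CCL20. Against day 23 alone they were 3.78, 4.79, 6.36, 6.97 and 5.43, and all of these passed. CCL3L1 thus had the largest difference of the 5 against day 12, and CCL4L2 against day 23. These 2 libraries also had the fewest genes detected and the most mitochondrial RNA. Their mast, basophil or eosinophil markers summed to 1030 to 1822 TPM, against 0 to 860 in the 3D libraries of days 12 to 23 without FBS. Monocyte markers summed to 724 to 989 TPM in E. coli against 1154 to 6454, with VCAN, FCN1 and PLAC8 at 0 in E. coli. The 2 libraries also differed from each other: erythroid markers summed to 0 TPM in 1 and 3479 in the other, and lymphoid or NK markers ranged from 112 to 297. The part of these in the result was not tested.

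**Figure D3:**
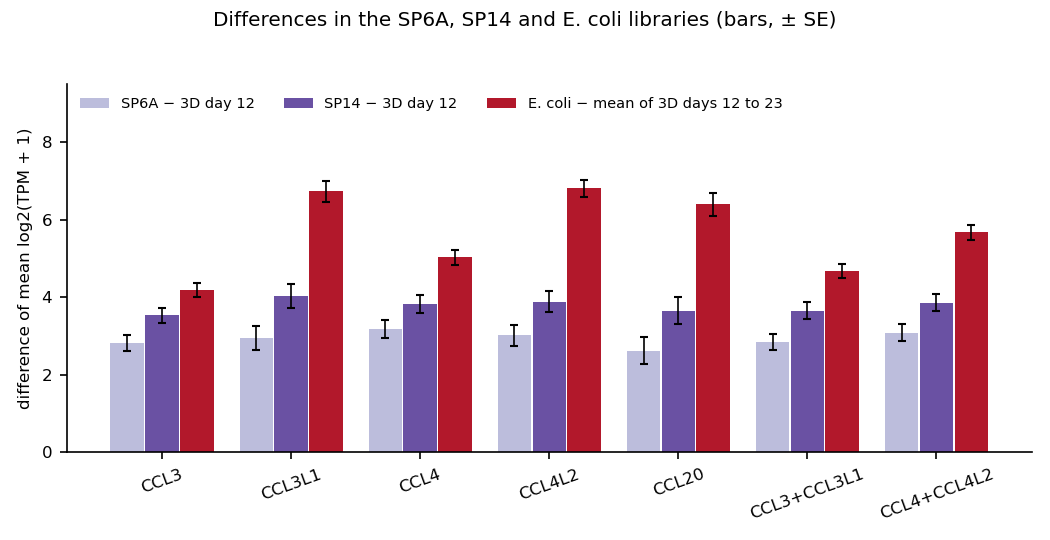
Difference of mean log2(TPM + 1), with SE, for the 5 genes and the 2 summed pairs in SP6A and SP14 against 3D day 12 and in E. coli relative to the average of days 12 to 23 without FBS. All bars lie above 2, and the tallest are CCL4L2 (6.80) and CCL3L1 (6.73) in E. coli.

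The share of each pair that was assigned to the copy differed between groups, being high at 3D day 12 and in SP6A, SP14 and E. coli and low at days 16 to 23 without FBS. No source used here says how reads shared by near-identical copies were assigned, so single-copy values are uncertain. The sums do not depend on how reads were split between the listed copies, but would miss reads dropped for matching more than 1 place. The shares were not tested.

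CCL4L2 made up 53.9 ± 1.27% of the CCL4 pair in 3D day 12 (SD, n = 4), 51.1 ± 0.932% in SP6A, 54.9 ± 0.847% in SP14 and 55.1 ± 0.217% in E. coli (SD, n = 2 each). At days 16, 19 and 23 without FBS it made up 19.8 ± 1.14%, 17.4 ± 2.70% and 21.4 ± 3.42% (SD, n = 3 each). No library of these days exceeded 24.3%, and none of the 4 former groups was below 50.5%. With FBS the shares were 31.1 ± 1.47%, 36.6 ± 9.48% and 43.3 ± 2.27% at the same days, with every FBS library above every library without FBS of its day. The 2D libraries ranged from 26.5 to 44.5%.

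CCL3L1 was a smaller share of its pair. It made up 21.9 ± 0.27% of the CCL3 pair in 3D day 12, 5.81, 5.61 and 8.82% on average at days 16, 19 and 23, and 23.5, 28.5 and 36.7% in SP6A, SP14 and E. coli. In 2D it made up 15.9%. With FBS it made up 6.99, 9.39 and 10.8% at days 16, 19 and 23, and unlike CCL4L2 its ranges with and without FBS overlapped at each day. The balance between the pairs differed as well. The summed CCL3 pair was 0.715 times the CCL4 pair in 3D day 12 and 0.606, 0.620 and 0.703 times in SP6A, SP14 and E. coli, but 1.74, 1.78 and 1.72 times at days 16, 19 and 23, up to 2.15 times at day 23 with FBS, and 1.38 times in 2D. On the TPM scale, then, the CCL4 pair exceeded the CCL3 pair in the 4 groups where the copies were a large share. The single-cell counts of day 12 did not show this balance. There the CCL3 pair was 1.06 times the CCL4 pair over all cells, and 1.07 times in macrophage-like cells (described below). In those macrophage-like cells CCL4L2 made up 38.6% of its pair, against 53.9% in bulk at 3D day 12. CCL3L1 differed the other way, at 31.5% of its pair against 21.9% in bulk. Why the 2 kinds of file differ was not tested.

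**Figure D4:**
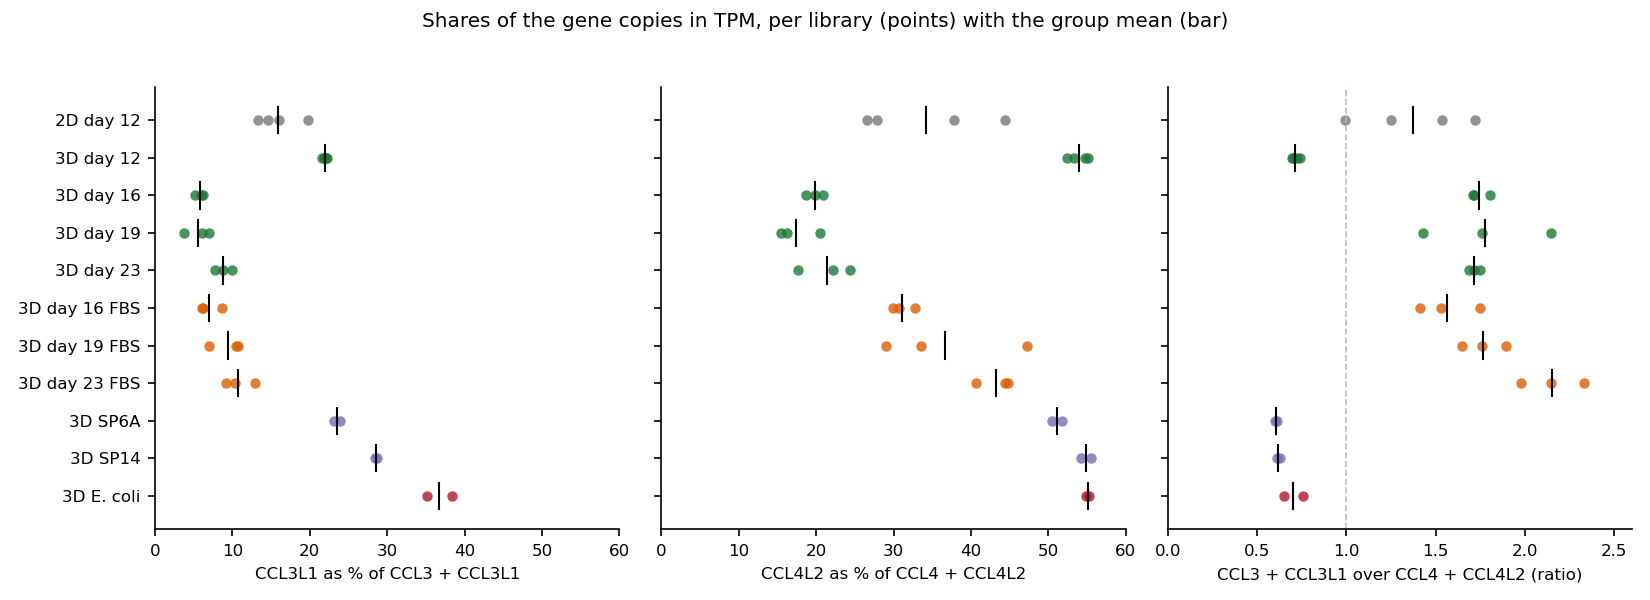
Per bulk library (points, with the group mean as a bar), CCL3L1 as a percent of CCL3 plus CCL3L1, CCL4L2 as a percent of CCL4 plus CCL4L2, and the ratio of the 2 sums. 3D day 12, SP6A, SP14 and E. coli have ratios below 1 (dashed line), and days 16 to 23 above 1.

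In every group the mean TPM of CCR1 was below that of CCL3. CCR1, a receptor of CCL3, averaged 63.6 TPM in 3D day 12 and rose to 161 TPM in SP6A (adjusted p = 0.00543) and 262 TPM in SP14 (adjusted p = 8.94e-05), but fell in E. coli (35.98 TPM, 13.5 and 58.4 in the 2 libraries, adjusted p = 0.0118). CCR6, the receptor of CCL20, averaged at most 2.52 TPM, in 2D day 12.

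Genes of the NF-kB pathway and other early response genes were counted in the same comparisons, and each count is to be read against all genes tested: 17.1% were called higher and 10.8% lower in SP6A, 18.4% and 13.0% in SP14, and 13.7% and 42.9% in E. coli. All 5 NF-kB subunit genes rose in SP6A and in SP14 against day 12, with NFKB1 going from 10.1 to 26.3 and 32.6 TPM (adjusted p = 0.0113 and 0.00219). In E. coli 3 of 5 rose, with NFKB1 at 173 TPM (log2 difference 3.42, adjusted p = 2.7e-08). Of 9 feedback inhibitors, 6 rose and 1 fell in SP6A, 5 rose and 1 fell in SP14, and 5 rose and 1 fell in E. coli. NFKBIA, which holds NF-kB in the cytoplasm, averaged 978 TPM in 3D day 12 and fell to 269 TPM at day 16 (log2 difference -1.86, adjusted p = 3.45e-07).

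Of 10 early response cytokine genes, 7 rose and 0 fell in SP6A, 7 rose and 1 (IL6) fell in SP14, and 9 rose and 0 fell in E. coli. CXCL8, the neutrophil chemokine, rose from 307 TPM in 3D day 12 to 4386 in SP6A and 7242 in SP14 (adjusted p = 1.89e-07 and 1.19e-08) and stood at 6078 TPM in E. coli. Of 9 other CC chemokines tested, 1 rose and 4 fell in SP6A and in SP14, and 2 rose and 6 fell in E. coli, where 42.9% of all genes were called lower. CCL2, a monocyte attractant, fell from 4745 TPM at day 12 to 784 in SP6A and 1192 in SP14 (adjusted p = 1.32e-08 and 4.13e-07). Among 8 AP-1 genes, 4 rose and 1 fell in SP6A, 3 rose and 2 fell in SP14, and 7 rose and 1 (FOS) fell in E. coli.

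In the comparisons over time, 6 of the 10 cytokine genes fell and 1 rose from day 12 to day 16, where 6.25% of all genes were called lower and 10.3% higher. From day 19 to day 23, 2 rose (CXCL1 and CXCL8) and 2 fell (IL10 and PTGS2), against 4.42% of all genes higher and 7.97% lower. CXCL8 fell from 204 to 67.4 TPM between days 16 and 19 (adjusted p = 0.0493) and rose to 301 TPM at day 23 (adjusted p = 0.00047), as CCL3 did. With FBS at day 16, 4 of the 9 feedback inhibitors and 5 of the 10 cytokine genes fell, and 1 and 2 rose. At day 19, 2 and 3 fell, and 0 and 4 rose. At day 23, 4 and 1 fell, and 0 and 5 rose. Of all genes, 10.1% were called lower and 7.96% higher at day 16. The shares were 12.2% and 12.8% at day 19, and 4.86% and 8.87% at day 23. NFKBIA and TNFAIP3, both feedback inhibitors, fell with FBS at all 3 days (adjusted p from 1.24e-05 to 0.00718). IL1B fell at days 16 and 19, from 559 to 26.2 TPM and from 290 to 34.1 TPM (adjusted p = 7.24e-10 and 4.44e-08), but not at day 23 (adjusted p = 0.842). CXCL3 rose with FBS at all 3 days, for example from 15.9 to 81.7 TPM at day 16 (adjusted p = 0.000377), opposite to CCL20.

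Over the 11 group means of log2(TPM + 1), CCL3 and CCL4 were most like each other (Pearson r = 0.985). Among 9510 genes, and leaving out the 5 chemokine genes themselves, CXCL8 had the pattern most like CCL3 (r = 0.967) and most like CCL4 (r = 0.976). GNB4 (0.964 and 0.953) was second for both. The 3 next were RASGEF1B (0.951), SGTB (0.944) and SLFN5 (0.934) for CCL3, and TMEM43 (0.953), ATF3 (0.952) and NFE2L2 (0.946) for CCL4. For CCL20 they were NFKBIA (0.963), ZC3H12A (0.959), MFSD2A (0.933), SDC4 (0.931) and CXCL1 (0.931). CCL20 correlated with CCL3 at 0.814 and with CCL4 at 0.893. These correlations are descriptions over groups that share a culture line and differ in library composition.

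In the single-cell libraries, counts of unique molecular identifiers (UMIs) of the 5 genes were few at days 7 and 9 and many at day 12. There is 1 library per day, so no test was made, and intervals (95%, exact) cover counting error only. The libraries kept 6551, 11292 and 7592 cells with medians of 24179, 13032 and 16617 UMIs, and each pair shared 17 to 24 cell barcodes. Summed CCL3 and CCL3L1 made up 4.61 CPM (counts per 1000000 UMIs) at day 7 (interval 4.30 to 4.95), 13.9 at day 9 (13.3 to 14.5) and 1153 at day 12 (1147 to 1158). Summed CCL4 and CCL4L2 went from 6.99 to 14.6 and 1085 CPM, and CCL20 from 0.222 to 1.42 and 66.9 CPM.

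At day 12 nearly all of these UMIs came from the cells that carried macrophage markers. The clustering left out all CCL and CXCL genes, and IL1A, IL1B, IL6 and TNF. Its macrophage-like clusters, each with all 13 macrophage markers raised, held 0 cells at day 7, 26 at day 9 (fewer than the 50 needed to give values) and 2088 at day 12. Those 2088 were 27.5% of the day-12 cells and held 94.6% of the CCL3 UMIs, 95.4% of CCL3L1, 93.7% of CCL4, 94.6% of CCL4L2 and 87.5% of CCL20. At day 9 the 26 macrophage-like cells held 15.4% of the UMIs of the CCL3 pair, 21.8% of the CCL4 pair and 6.64% of CCL20, while unnamed clusters held 71.5, 54.9 and 66.0%. At day 7, with no macrophage-like cell, megakaryocyte-like cells held 52.3% of the 1196 UMIs of the CCL4 pair, and unnamed clusters 55.6% of the 789 UMIs of the CCL3 pair. A further cluster of 21 day-12 cells also had all 13 markers raised but stayed unnamed, since it held fewer than 50 cells. A gate on macrophage markers without clustering took 148, 389 and 2762 cells at days 7, 9 and 12. The classes were rebuilt here and not taken from the study.

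In these macrophage-like cells (median 30031 UMIs), CCL3 reached 1779 CPM (1769 to 1790) and was found in 89.9% of cells, and CCL4 reached 1489 CPM (1480 to 1498) in 83.0% of cells. CCL3L1 was at 819 CPM in 72.3% and CCL4L2 at 937 CPM in 73.5% of cells. CCL20 was at 139 CPM (136 to 142) and was found in 30.2% of cells. After thinning each cell to 3000 UMIs, which left out 18 shallower cells, the shares were 71.0% for CCL3, 63.6% for CCL4 and 15.99% for CCL20.

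In stroma-like cells (3745 cells, median 13481 UMIs), taken as a reference class, the summed CCL3 pair stood at 44.8 CPM with a UMI in 40.3% of cells, or 12.4% after thinning. The summed CCL3 pair was at 38.8 CPM (interval 33.7 to 44.4) in endothelial-like and 40.7 CPM (34.7 to 47.3) in erythroid-like cells. Both intervals overlapped that of stroma-like cells (43.1 to 46.6). Megakaryocyte-like cells lay above the stroma-like level, at 57.8 CPM (49.9 to 66.6) for the CCL3 pair and 55.4 CPM (47.6 to 64.0) for the CCL4 pair. The stroma-like values were 44.8 CPM (43.1 to 46.6) and 45.2 CPM (43.5 to 47.0). CCL20 was at 2.83 CPM (2.41 to 3.30) in stroma-like, 1.95 in erythroid-like, 6.66 (4.17 to 10.1) in megakaryocyte-like and 8.35 (6.09 to 11.2) in endothelial-like cells. The share of CCL3L1 in the CCL3 pair was 30.04% in stroma-like (interval 28.3 to 31.8), 32.5% in endothelial-like (26.2 to 39.3) and 31.5% in macrophage-like cells (31.3 to 31.8), whose intervals overlap. It was 46.1% in megakaryocyte-like (38.9 to 53.4) and 25.5% in granulocyte progenitor-like cells (24.2 to 26.8), both apart from the macrophage-like interval. Whether the stroma-like level is background was not tested, and it serves here only as a reference level. Granulocyte progenitor-like cells (730 cells) were far above it, at 326 CPM for the CCL3 pair, 375 CPM for the CCL4 pair and 67.7 CPM (63.5 to 72.1) for CCL20. That cluster was led by CLC, PRTN3 and PRG2, which include eosinophil genes.

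The macrophage-like cells fell into 2 clusters that differed in these genes. Cluster 15 (1432 cells at day 12, median 28909 UMIs) held 3735 CPM of the CCL3 pair, 3556 of the CCL4 pair and 205 of CCL20, and cluster 17 (656 cells, median 31848 UMIs) held 289, 128 and 4.98 CPM. Thinned to 3000 UMIs, CCL3 was found in 88.1% and 33.1% of their cells and CCL20 in 22.9% and 0.774%. Against all other cells of the 3 days, CCL4, CCL3, CCL3L1 and CCL4L2 were the 4 genes of largest fold in cluster 15. IL1B, like them left out of the clustering, and SPP1 followed. MRC1, a mannose receptor of resident-type macrophages, ADAP2 and CD14 led the same ranking for cluster 17. The ranking does not set the 2 clusters against each other, and MRC1 and CD14 were among the 13 markers raised in both. The cells were split by other genes that vary with these chemokines, so the contrast is a description.

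**Figure D5:**
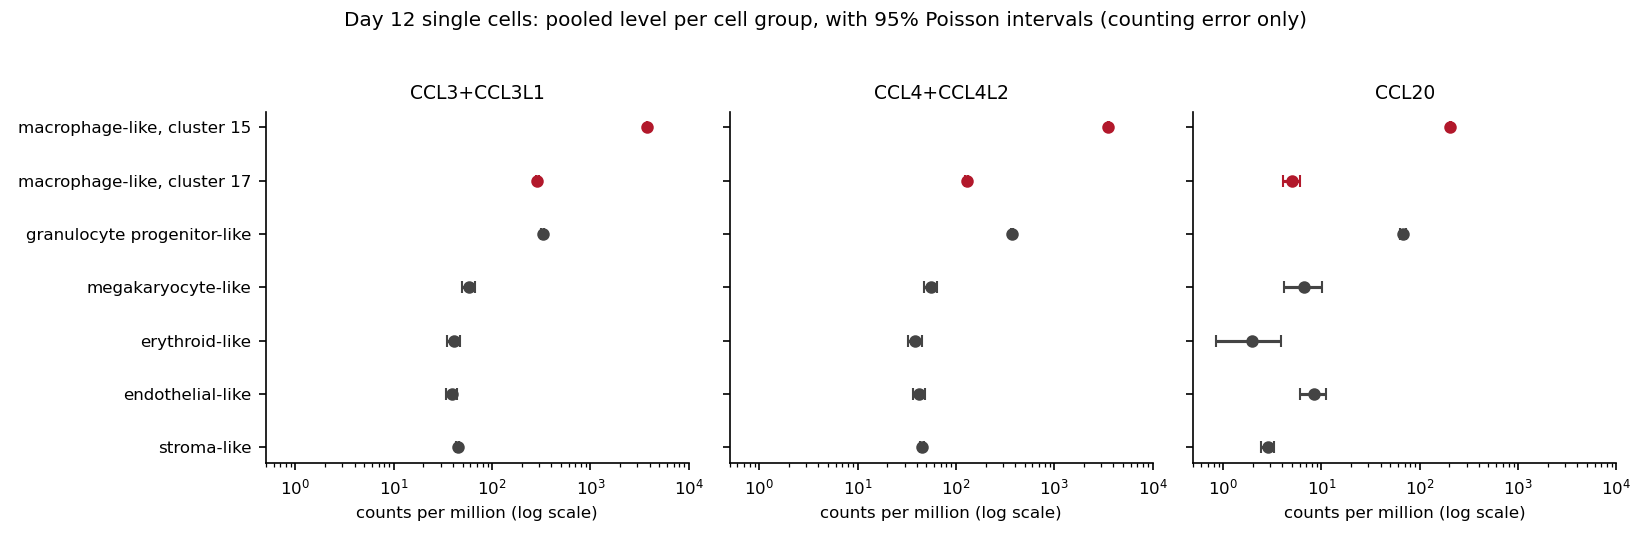
Day-12 single cells: pooled CPM (log axis) of the CCL3 pair, the CCL4 pair and CCL20 in macrophage-like clusters 15 and 17 (red) and in other cell classes (grey), with 95% Poisson intervals. Cluster 15 lies highest in all 3 panels, and the granulocyte progenitor-like class lies above cluster 17 in each.

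Among the 2088 macrophage-like cells the counts were spread widely. The CCL3 pair had 0 UMIs in 152 cells, 1 to 9 in 554, 10 to 99 in 713 and at least 100 in 669, with a median of 40 and a maximum of 1001. The CCL4 pair had 0 in 242 cells and at least 100 in 631, and CCL20 had 0 in 1458 cells, with a maximum of 226. Cells with much of the CCL3 pair also had much of the CCL4 pair: 1773 cells had both, and Spearman's rho was 0.930, or 0.878 after thinning (2070 cells, all from 1 library). CCL20 was found in 20.7% of thinned cells with the CCL3 pair and in 3.06% of those without.

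Dividing cells also carried these chemokines. In the 1029 macrophage-like cells with a UMI of both TOP2A and MKI67, genes of dividing cells, the CCL3 pair was at 2438 CPM and CCL20 at 104 CPM. In the 584 with neither, the values were 3078 and 230 CPM. Their median depths differed (37479 and 19524 UMIs), and after thinning the CCL3 pair was found in 68.6% and 81.5% of cells. Of the receptors, CCR1 was found in 91.3% of macrophage-like cells (148 CPM) and CCR6 in 2.16% (1.02 CPM), against 2.83% and 0.481% of stroma-like cells.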

How the data were processed

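Per the labels, bulk RNA was extracted with TRIzol and made into SMART-seq2 libraries, and single cells were prepared with 10x Genomics kits. The authors deposited 1 table of TPM for 32 libraries. Per the submitters' processing notes the series used HISAT2, HTSeq (0.11.1) and Trim Galore (0.4.4) with hg38. No source used here says which tool computed the TPM. The deposited single-cell files hold UMI counts that, per the file headers, Cell Ranger 7.0.0 (day 12) and 7.1.0 (days 7 and 9) wrote.

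The genes and all lists were chosen with earlier results on these data known. TPM were tested as log2(TPM + 1) with limma 3.58.1 in R 4.3.3, for genes with a mean of at least 1 TPM, with Benjamini-Hochberg adjustment over all genes and a threshold of 0.05. All comparisons among 3D groups came from 1 fit of 28 libraries (13384 genes), and the background of 3D against 2D from a fit of 8 (13131 genes). SE is that of the fit, which shares 1 spread over all groups. Folds are ratios of mean TPM. Summed pairs replaced their rows in a second fit. On simulated data the fit recovered 14% of genes changed by 1 and 72% of those changed by 2 (log2) for FBS at day 19, and 9% and 50% for SP14 against SP6A. Named genes are the 5 genes, the 5 genes most like CCL3, CCL4 and CCL20 (mean of at least 10 TPM in some group), and up to 4 genes of highest mean per fixed list.

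Cells needed at least 500 genes and 1000 UMIs, with no more than 15% of counts mitochondrial, and Scrublet (expected rate 0.06) removed 216, 435 and 369 cells. Clusters (scanpy 1.11.5, 1977 variable genes, 30 components, Leiden 0.5) took names from fixed markers with at least 2 times the level of other cells and 20 CPM (at least 3 such markers and 0.5 of the list, in a cluster of at least 50 cells whose leading genes did not favour another type), a rule set after the clusters were seen: 11 of 18 were named. Libraries of the same replicate number were no more alike than others in their deviations from group means. The mean correlation of deviations was -0.0046 over 139 same-numbered pairs, with 0 pairs over 0.1. Over 324 other pairs it was 0.0020, with 1 pair over 0.1. With 2 to 4 libraries per group, this cannot show that same-numbered libraries share no culture. Sequences and positions are from RefSeq GRCh38.p14, matched by identifier or symbol. A gene of the receptor list is not reported here.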

Additional observations from a re-analysis of the deposited data

Results flagged for a closer look

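The effect of FBS differed between days 16, 19 and 23 in all 5 genes and in both sums, by an F test of the interaction of FBS with day in limma, adjusted over all genes. The adjusted p was 0.0031 for CCL3, 0.00694 for CCL3L1, 0.00913 for CCL4, 0.00508 for CCL4L2 and 0.000159 for CCL20. It was 0.00311 for CCL3 with CCL3L1 and 0.00497 for CCL4 with CCL4L2. Of all genes, 12.9% passed the same test. The FBS effect of CCL3 was 1.45 higher at day 19 than at day 16 on the log2 scale, that of CCL3L1 1.98, that of CCL4 1.14 and that of CCL4L2 1.71. With FBS, CCL20 was listed at 0 in all 6 libraries of days 19 and 23 and in 2 of 3 at day 16, so its effect at each day is set by its level without FBS and by the pseudocount. The level without FBS was lowest at day 19 for the other 4 genes too, and the part of that level in their differing effect was not tested.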

How the results depend on the processing

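Depth is unknown for the bulk table, 3 groups hold 2 libraries, and the copies may share reads. Of 1104 values of single genes and sums under alternatives, 1037 kept their direction and side of the threshold, 45 lost a call, 15 gained one, 7 moved and 0 reversed. Day 19 against day 16 was the least stable: 1 gene of the 5 was called under median-ratio scaling and 1 with a pseudocount of 0.1 (60 genes in all), and leaving out 1 library gave 0 to 1 of the 5 and 36 to 63 genes. With a replicate block 2 of the 5 were called and 77 genes in all (CCL4L2 adjusted p = 0.0589, the CCL4 pair 0.0584), and the block changed no other call. By the correlations given above, libraries of the same number were no more alike than others.

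Without the E. coli libraries, called genes went from 2219 to 3435 (day 16 against 12), 91 to 209 (day 19 against 16), 1658 to 2832 (day 23 against 19), 2417 to 3672 and 1838 to 2973 (FBS at days 16 and 23) and 1728 to 3181 (interaction). With no filter on low values, SP6A against day 12 gave 6468 genes, and SP14 against SP6A 544 genes and 1 of the 5. Leaving out 1 library gave 1510 to 1963 genes for FBS at day 16, 853 to 1678 for day 23 against 19, 2003 to 3438 for SP6A, 2568 to 3920 for SP14 and 4 to 8 for SP14 against SP6A. A marker gate without clustering (2762 cells) gave 88.2% of cells with the CCL3 pair, 85.2% with the CCL4 pair and 27.2% with CCL20. The CCL4 pair, lower with FBS at days 16 and 23 (adjusted p = 0.00627 and 0.0175), lost its call at day 16 without FBS replicate 1 (adjusted p = 0.0501) and at day 23 without day 23 replicate 3 (0.0686), FBS replicate 1 (0.0606) or FBS replicate 3 (0.0521).

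Median-ratio scaling moved the share of higher among called genes from 34.5 to 48.2% for 3D against 2D, 62.3 to 35% at day 16 against 12, 50.5 to 69.9% at day 19, 35.6 to 50.2% at day 23, 64.6 to 49.4% for FBS at day 23, 61.3 to 43.3% for SP6A, 58.5 to 43.3% for SP14 and 66.1 to 50.9% for the interaction. The sum with further copies gave no value, because no row of CCL3L3, CCL4L1, CCL3P1 or CCL3L2 was found.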
